A study of Mus musculus with 6 samples.

Results

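The Gimap genes encode GTPases of immunity-associated proteins, a family of GTP-binding proteins found mainly in lymphocytes. The 8 members were taken by gene name from a count table of 54532 mouse genes, and all 8 (Gimap1, Gimap3, Gimap4, Gimap5, Gimap6, Gimap7, Gimap8 and Gimap9) were present there once and had enough counts to be tested. The table covers Treg cells, Th17 cells and naive T cells, 2 libraries of each. All 6 libraries were labelled as wild type (WT), untreated and of thymus origin, the cells are named Tregs, Th17 and Naive T, and no age or strain is given. The labels do not say whether the Th17 and Treg cells were differentiated in culture or taken directly, so any culture or stimulation is part of every difference between the types. They also name no separate animals or cultures behind the libraries. The p-values therefore measure the spread between these libraries only, which may be technical.

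Gimap proteins share a guanine-nucleotide binding domain, and several sit on internal membranes through their C-terminal ends. They are best known for keeping resting lymphocytes alive: mice that lack Gimap1 or carry a damaged Gimap5 lose mature T cells, and the BB rat became lymphopenic through a mutation in its Gimap5. Individual members have been tied to the Bcl2 family, to lysosomes and to autophagy, and GIMAP6 binds a protein of the Atg8 family. Some Gimap genes are also expressed by B cells, NK cells and endothelium.

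The 8 genes lie side by side on chromosome 6 of the mouse, between 48647234 and 48770851 on mm10 (123.6 kb), in the order Gimap8, Gimap9, Gimap4, Gimap6, Gimap7, Gimap1, Gimap5 and Gimap3. Gimap6 and Gimap3 are on the minus strand and the others on the plus strand. Gimap8 is the longest, with a coding sequence of 2064 bases, whereas the other 7 have 873 (Gimap9) to 984 bases (Gimap4). Gimap3 and Gimap5 are the closest relatives, with 90.4% identity over 895 aligned coding bases. Any other pair without Gimap8 had at most 67.9% (Gimap3 and Gimap6, 666 aligned bases). Pairs with Gimap8 gave 69.1% to 73.9%. Identity was taken over aligned bases only, and Gimap8 is far longer than the others, so its values are not comparable with the rest. The stretches below are examples of coding sequence where reads of Gimap3 and Gimap5 can best and least be told apart. The first pair is the 100-base window of the aligned coding sequences with the most differences, 16 of them, given in capitals (chr6:48765186-48765285, minus strand, for Gimap3 and chr6:48753219-48753318, plus strand, for Gimap5, from GENCODE transcripts on GRCm38). The last line is the longest run that is the same in both, 140 bases, at chr6:48765681-48765820 (minus strand) in Gimap3 and chr6:48752684-48752823 (plus strand) in Gimap5.
Gimap3 coding bases 710 to 809: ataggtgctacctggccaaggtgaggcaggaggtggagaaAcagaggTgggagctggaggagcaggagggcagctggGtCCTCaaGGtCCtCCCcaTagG
Gimap5 coding bases 722 to 821: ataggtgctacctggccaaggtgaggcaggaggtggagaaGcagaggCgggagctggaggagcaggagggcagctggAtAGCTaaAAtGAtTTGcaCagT
Gimap3 coding bases 175 to 314, identical in Gimap5: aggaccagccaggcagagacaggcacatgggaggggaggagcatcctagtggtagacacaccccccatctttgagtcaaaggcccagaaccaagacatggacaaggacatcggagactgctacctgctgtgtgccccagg
Most of the differences lie at the 3′ end of the window. A read that falls within the last line could come from either gene. Of all 50-base words in the transcripts of Gimap3, 8.15% also occur in another gene's transcripts or in their reverse complement. For Gimap5 the share is 6.84%. Words shared with an antisense gene are thus counted here, and they matter only if strand was not used in counting. The shares are 35.5% for Gimap1, mostly because the antisense gene Gimap1os covers 36.0% of its exonic bases, 1.39% for Gimap7, 0.17% for Gimap6 and 0 for Gimap4, Gimap8 and Gimap9. The sources used here do not give how such reads were counted or whether strand was used, so the values of Gimap1, Gimap3 and Gimap5 carry this uncertainty.

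Total counts ranged from 16458939 to 17901331 per library, and 15543 genes were tested. Foxp3, the transcription factor that defines Treg cells, was higher in Treg than naive cells (log2 fold change 6.14 ± 0.22 (SE)). Il17a, which encodes the cytokine that names Th17 cells, had 6172 and 9311 counts in Th17 libraries and 0 counts in all Treg and naive libraries. T cell identity genes (Cd3d, Cd3e, Cd3g, Cd247, Trac, Trbc2, Lck and Cd4) summed to 2298 to 2399 CPM in Treg, 1787 to 2201 CPM in Th17 and 5324 to 6733 CPM in naive libraries. All 8 were called lower than in naive cells in both types, where 19.9% (Treg) and 28.4% (Th17) of all tested genes were lower. Their median log2 fold change was -1.59 in Treg and -1.68 in Th17 cells. CPM, the count relative to library size, is given after scaling the libraries by the trimmed mean of M values (TMM). The labelled tissue is thymus, and the thymocyte genes Rag1, Rag2 and Ptcra had 0 counts in both naive libraries. The 6 thymocyte and CD8 genes listed summed to 21.1 to 26.7 CPM in Treg, 13.3 to 21.4 CPM in Th17 and 30.9 to 38.3 CPM in naive libraries. Of the 4 tested, 2 were higher and 2 lower in Treg than in naive cells, beside 23.6% and 19.9% of all tested genes. In Th17 cells 0 were higher and 1 lower than in naive cells, beside 29.3% and 28.4%. Higher in Treg cells were Rag1, with 42 and 41 counts in Treg libraries, and Cd8a (log2 fold change 1.74 ± 0.32 (SE)). Lower in Treg cells were Dntt, with 4 and 4 counts in Treg and 127 and 168 counts in naive libraries, and Cd8b1 (-1.11 ± 0.23). With total counts in place of TMM, the median of all genes shifts by 0.182 (Treg against naive) and 0.236 log2 units (Th17 against naive), so all changes are relative to the TMM scale. In these bulk libraries, fewer cells of a kind and less RNA per cell cannot be told apart.

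Together the 8 genes summed to 2211 and 1973 CPM in Treg libraries 1 and 5, to 807 and 936 CPM in Th17 libraries 1 and 5, and to 4563 and 4887 CPM in naive libraries 1 and 5. The 3 types did not overlap, with Treg between Th17 and naive. In Treg cells the sum averaged 2092 ± 169 CPM, 44.3% of the naive mean of 4725 ± 229 CPM, and in Th17 cells it averaged 872 ± 91.2 CPM, 18.4% of that mean (SD, n = 2 each). The family's part of all counts was 0.229% and 0.202% in Treg, 0.0862% and 0.100% in Th17 and 0.429% and 0.426% in naive libraries.

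**Figure D1:**
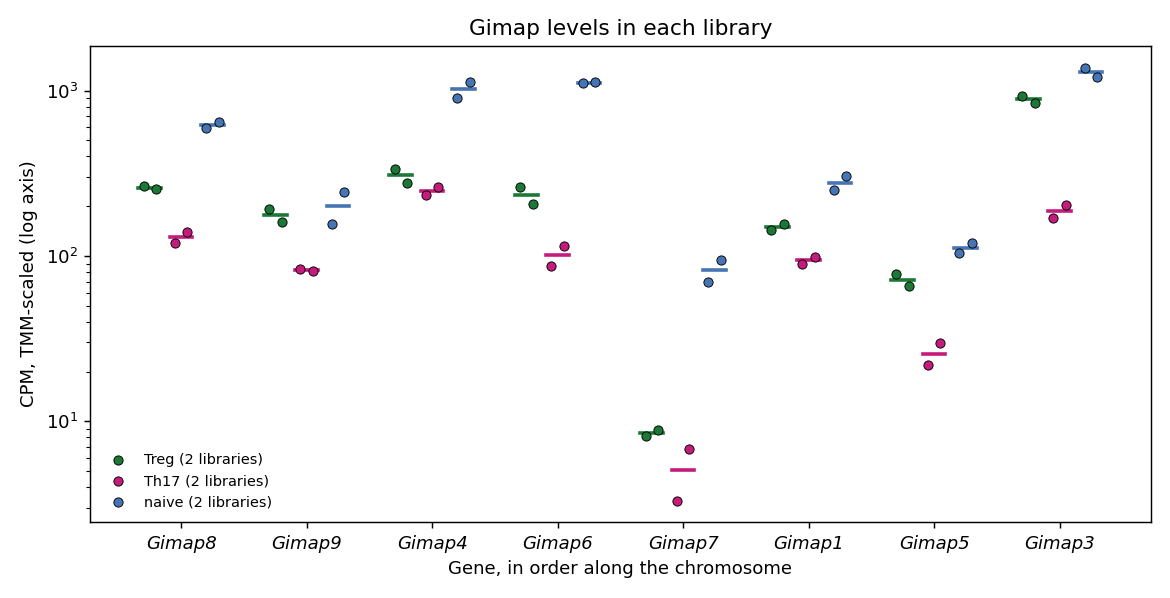
Each point is the level of a Gimap gene in a library (CPM after TMM scaling, log axis), with Treg, Th17 and naive libraries from left to right within a gene and a bar at the mean of 2 libraries. The naive points are the highest for 7 of the 8 genes, whereas for Gimap9 the Treg and naive libraries overlap.

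Within each type the genes differed widely in level per length. The length joins all exons of a gene's transcripts and can exceed that of the RNA expressed, so genes compare only roughly. Levels of Gimap3 and Gimap5 also depend on how their shared reads were assigned. In CPM per kilobase of exon, the order in Treg cells was Gimap3 at 343 ± 22.8, Gimap4 at 167 ± 22.1, Gimap9 at 108 ± 14.1, Gimap8 at 69.9 ± 2.21, Gimap6 at 67.1 ± 11.1, Gimap1 at 49.0 ± 2.79, Gimap5 at 17.3 ± 2.03 and Gimap7 at 3.67 ± 0.217 (SD, n = 2). There the libraries of Gimap8 and Gimap6 overlapped, and no other neighbours in that order did. In Th17 cells Gimap4 led with 135 ± 11.2 CPM per kilobase, before Gimap3 at 72.2 ± 9.47 and Gimap9 at 50.3 ± 1.17. The lowest there were Gimap5 at 6.19 ± 1.33 and Gimap7 at 2.18 ± 1.07, and the only neighbours in that order whose libraries overlapped were Gimap1 at 30.6 ± 2.05 and Gimap6 at 28.9 ± 5.55. In naive cells Gimap4 at 555 ± 89.9 and Gimap3 at 503 ± 45.4 CPM per kilobase overlapped at the top, followed by Gimap6 at 320 ± 5.59, Gimap8 at 168 ± 9.52, Gimap9 at 122 ± 37.3, Gimap1 at 90.1 ± 12.0, Gimap7 at 35.2 ± 7.39 and Gimap5 at 26.9 ± 2.52. The libraries of Gimap9 and Gimap1 also overlapped. Among all tested genes Gimap4 ranked 105th and Gimap3 122nd by this measure in naive cells, while Gimap3 ranked 100th in Treg and 606th in Th17 cells.

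The make-up of the family shifted with it. Gimap3 held 41.1% and 42.2% of the summed CPM per kilobase in the Treg libraries, 19.5% and 20.6% in the Th17 libraries and 24.7% and 30.8% in the naive libraries. Gimap6 held 8.10% ± 0.642 in Treg, 7.98% ± 0.801 in Th17 and 17.6% ± 0.844 in naive cells (SD, n = 2). Gimap9 held 13.0% ± 0.583 in Treg and 14.0% ± 1.63 in Th17 cells, against 6.64% ± 1.62 in naive cells. For Gimap3 the libraries of the 3 types were all apart, and for Gimap6 and Gimap9 those of Treg and Th17 lay together and apart from naive. These shares were not tested.

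**Figure D2:**
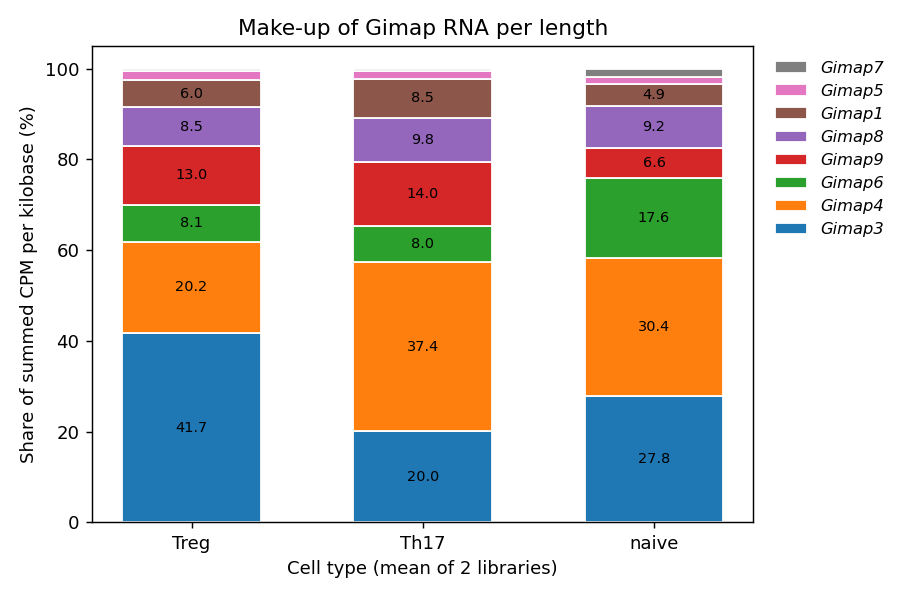
Stacked bars give each gene's share of the summed CPM per kilobase of the 8 Gimap genes, as the mean of 2 libraries, in Treg, Th17 and naive cells. Gimap3 takes its highest share, 41.7%, in Treg cells and Gimap4 its highest, 37.4%, in Th17 cells, while Gimap6 takes its highest, 17.6%, in naive cells.

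All 8 Gimap genes were lower in Th17 than in naive cells, by log2 fold changes of -1.28 to -4.01 with a median of -2.19, against a median of -0.03 over all tested genes. Lower calls made up 28.4% of the 15543 genes tested in this comparison (edgeR quasi-likelihood test, Benjamini-Hochberg adjusted p under 0.05). For all 8 genes both Th17 libraries lay below both naive libraries, which held for 39.5% of all tested genes. All 8 were at least 2-fold lower, as were 18.8% of all tested genes.

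Gimap7, whose human counterpart can stimulate GTP hydrolysis by a related GIMAP protein, had 3.32 and 6.82 CPM in Th17 libraries, against 69.8 and 94.1 CPM in naive libraries. It was 16.1-fold lower in Th17 cells (log2 fold change -4.01 ± 0.29 (SE), adjusted p = 3.2e-08), from 62 and 127 counts in the Th17 libraries. Gimap6, the member linked to autophagy, had 87.2 and 115 CPM in Th17 libraries, against 1105 and 1132 CPM in naive libraries. Its level was 11.1-fold lower (log2 fold change -3.47 ± 0.21 (SE), adjusted p = 5.9e-09). Gimap3, which has been placed on mitochondrial and other internal membranes, had 169 and 203 CPM in Th17 libraries, against 1379 and 1214 CPM in naive libraries. It was 6.97-fold lower (log2 fold change -2.80 ± 0.20 (SE), adjusted p = 3.4e-08).

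Gimap8, the longest member, had 120 and 140 CPM in Th17 libraries, against 596 and 646 CPM in naive libraries (log2 fold change -2.26 ± 0.17 (SE), adjusted p = 6.5e-08). Gimap5, the survival factor of resting T cells, had 21.8 and 29.6 CPM in Th17 libraries, against 104 and 119 CPM in naive libraries (log2 fold change -2.12 ± 0.18 (SE), adjusted p = 2.4e-07). Gimap4, which has been tied to T cell death, had 233 and 262 CPM in Th17 libraries, against 902 and 1136 CPM in naive libraries (log2 fold change -2.04 ± 0.20 (SE), adjusted p = 6.8e-07). These 3 genes moved by similar amounts, between 4.12-fold and 4.78-fold lower.

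Gimap1, required for mature T and B cells in mice, had 89.6 and 98.5 CPM in Th17 libraries, against 251 and 303 CPM in naive libraries. It was 2.94-fold lower (log2 fold change -1.56 ± 0.16 (SE), adjusted p = 1.7e-06). Gimap9 fell least, with 83.9 and 81.2 CPM in Th17 libraries and 157 and 243 CPM in naive libraries, which is 2.42-fold (log2 fold change -1.28 ± 0.20 (SE), adjusted p = 7.6e-05). The naive libraries of Gimap9 lay far apart, yet both stood above both Th17 libraries.

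Of the 8 genes, 7 were lower in Treg than in naive cells and Gimap9 did not pass, where lower calls made up 19.9% of all tested genes. The median log2 fold change of the 8 was -1.07, against 0.00 over all tested genes, and 4 of the 8 were at least 2-fold lower, as were 11.4% of all tested genes. For these 7 genes both Treg libraries lay below both naive libraries, as they did for 35.2% of all tested genes. Both naive libraries enter this comparison and the one before it, so the 2 sets of differences are not independent.

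Gimap7 was again the gene that fell furthest, with 8.18 and 8.90 CPM in Treg libraries, against 69.8 and 94.1 CPM in naive libraries. The difference was 9.58-fold (log2 fold change -3.26 ± 0.28 (SE), adjusted p = 3.2e-07). Gimap6 had 262 and 207 CPM in Treg libraries, against 1105 and 1132 CPM in naive libraries, a 4.77-fold fall (log2 fold change -2.25 ± 0.20 (SE), adjusted p = 5.7e-07). Gimap4 had 336 and 278 CPM in Treg libraries, against 902 and 1136 CPM in naive libraries, a 3.32-fold fall (log2 fold change -1.73 ± 0.20 (SE), adjusted p = 6.0e-06). These 3 neighbours on the chromosome showed the largest losses in Treg cells. Gimap8 had 264 and 253 CPM in Treg libraries, against 596 and 646 CPM in naive libraries (log2 fold change -1.26 ± 0.17 (SE), adjusted p = 3.1e-05). Gimap1 had 145 and 157 CPM in Treg libraries, against 251 and 303 CPM in naive libraries (log2 fold change -0.88 ± 0.16 (SE), adjusted p = 5.2e-04).

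For the remaining members the differences were small. Gimap5 had 77.7 and 65.8 CPM in Treg libraries, against 104 and 119 CPM in naive libraries (log2 fold change -0.64 ± 0.18 (SE), adjusted p = 0.00905). Its call ended with scaling by total counts (adjusted p = 0.0521) and without naive library 5 (0.0677) or Treg library 5 (0.113), within a range of 0.00458 to 0.113 over all alternatives run. Gimap3 had 926 and 843 CPM in Treg libraries, against 1379 and 1214 CPM in naive libraries (log2 fold change -0.55 ± 0.19 (SE), adjusted p = 0.0306). Its call ended with scaling by total counts (adjusted p = 0.140) and without naive library 1 (0.0725), Treg library 1 (0.125) or Treg library 5 (0.221), within a range of 0.0028 to 0.221. Counting Gimap3 and Gimap5 as 1 gene gave a log2 fold change of -0.56 (adjusted p = 0.0307).
Gimap9 had 193 and 160 CPM in Treg libraries, within the 157 and 243 CPM of the naive libraries (log2 fold change -0.18 ± 0.20 (SE), adjusted p = 0.485). Its direction depended on the setting: the log2 fold change was 0.02 with scaling by total counts and 0.18 without naive library 5, and -0.46 without naive library 1 (adjusted p = 0.0481), and the adjusted p ranged from 0.0481 to 0.96 over the alternatives.

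**Figure D3:**
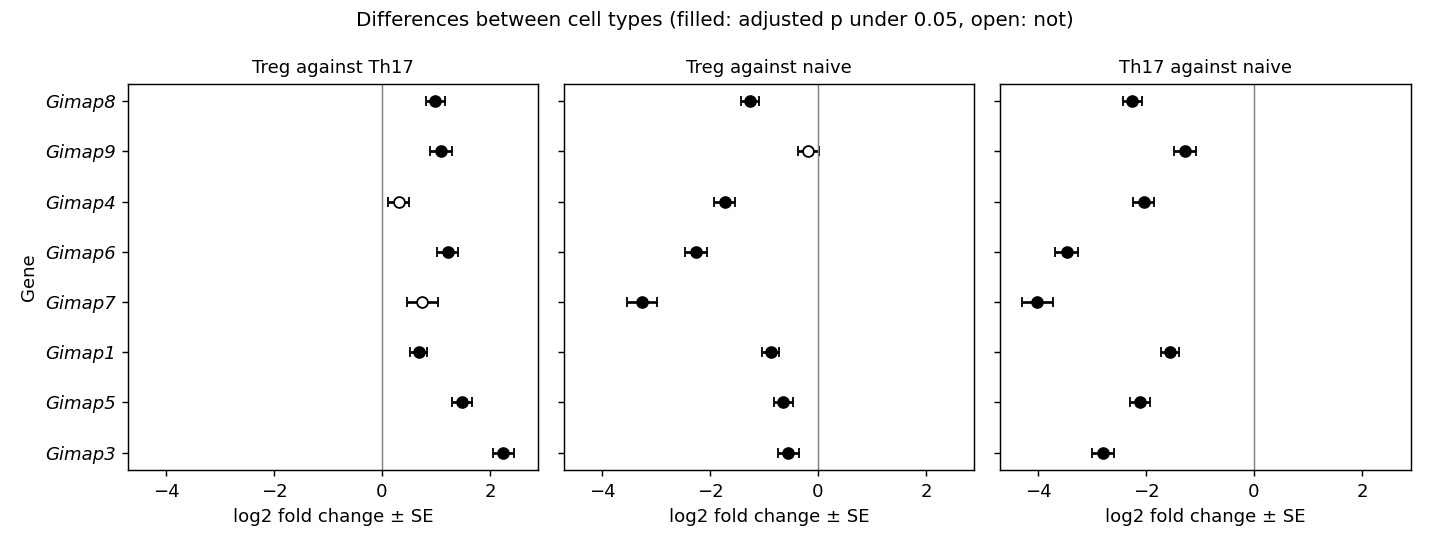
Points give the log2 fold change of each gene with its SE as bars, for Treg against Th17, Treg against naive and Th17 against naive cells, with filled points at an adjusted p under 0.05. Gimap7 and Gimap6 lie furthest left in both comparisons with naive cells, while Gimap3 differs most between Treg and Th17 cells.

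Treg cells were also compared with Th17 cells directly. Of the 8 genes, 6 were higher in Treg cells and 0 were lower, where higher calls made up 19% of all tested genes. In 8 of 8 genes both Treg libraries lay above both Th17 libraries, which held for 37.2% of all tested genes, and the median log2 fold change was 1.04 against 0.02 over all tested genes.

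Gimap3 differed most, at 926 and 843 CPM in Treg libraries, against 169 and 203 CPM in Th17 libraries. It was 4.76-fold higher in Treg cells (log2 fold change 2.25 ± 0.20 (SE), adjusted p = 6.7e-07). Its close relative Gimap5 came second, at 77.7 and 65.8 CPM in Treg libraries, against 21.8 and 29.6 CPM in Th17 libraries (log2 fold change 1.48 ± 0.18 (SE), adjusted p = 1.6e-05). Gimap6 (1.22 ± 0.20, adjusted p = 2.0e-04), Gimap9 (1.10 ± 0.20, adjusted p = 5.0e-04) and Gimap8 (0.99 ± 0.17, adjusted p = 3.0e-04) were each about 2-fold higher in Treg cells by their log2 fold changes. Gimap1 was 1.60-fold higher (log2 fold change 0.68 ± 0.16 (SE), adjusted p = 0.00398). That call ended without Th17 library 1 (adjusted p = 0.0557) and without Treg library 5 (0.0548), within a range of 8.5e-04 to 0.0557.

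The other 2 members did not pass. Gimap4 had 336 and 278 CPM in Treg libraries, against 233 and 262 CPM in Th17 libraries (log2 fold change 0.31 ± 0.19 (SE), adjusted p = 0.219). Gimap7 had 8.18 and 8.90 CPM in Treg libraries, against 3.32 and 6.82 CPM in Th17 libraries (log2 fold change 0.75 ± 0.29 (SE), adjusted p = 0.0509). Gimap7 passed without a filter on low counts (adjusted p = 0.00931), with the number in the column names as a block (0.0127) and without Th17 library 5 (0.00214), and its adjusted p ranged from 0.00214 to 0.452. The authors' deposited table, which compares each type with naive cells only, lists all 8 genes at an adjusted p under 0.05 for Th17 cells, and 7 of them for Treg cells, with Gimap9 the exception at 0.655.

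Inside the cluster or within 500 kb of it lie 52 other genes of the table, 25 of them tested. In Treg cells 4 of these 25 were called higher and 7 lower than in naive cells, where 23.6% of all tested genes were called higher and 19.9% lower. In Th17 cells 10 were higher and 8 lower than in naive cells, where 29.3% of all tested genes were higher and 28.4% lower. The 4 neighbours with the largest changes all lie beyond the Gimap3 end. Tmem176a, which encodes a membrane protein of immune cells, had 3.61 and 5.62 CPM in Treg, 417 and 283 CPM in Th17, and 2.71 and 1.80 CPM in naive libraries. Its partner Tmem176b had 6.30 and 8.13 CPM in Treg, 382 and 227 CPM in Th17 and 3.04 and 3.73 CPM in naive libraries. Aoc1, which encodes the diamine oxidase that degrades histamine, had 0 and 0.164 CPM in Treg, 64.7 and 22.6 CPM in Th17 and 0 and 0.415 CPM in naive libraries. The long non-coding RNA gene Gm7932 had 0 counts in naive libraries and averaged 2.79 CPM in Th17 cells, at least 13.9-fold higher against a floor of 3 counts per library. All 4 were thus higher in Th17 than in naive cells (log2 fold changes of 7.27 ± 0.30, 6.49 ± 0.29, 7.71 ± 0.71 and 8.58 ± 1.36 (SE) in the order named, the last resting on the prior count), whereas the Gimap genes were lower.

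Of the 25 genes, 4 lie inside the cluster. All 4 were lower in Th17 than in naive cells, as were 28.4% of all tested genes. Gimap1os and Gm28053 share exonic bases with members and the others overlap each other, so the 4 are not separate observations. Gimap1os, antisense to Gimap1, had 2.69 and 2.89 CPM in Treg, 3.27 and 3.98 CPM in Th17 and 18.1 and 19.9 CPM in naive libraries. It was 6.78-fold lower in Treg than in naive cells (log2 fold change -2.76 ± 0.28 (SE), adjusted p = 2.1e-06) and 5.23-fold lower in Th17 cells (-2.39 ± 0.27, adjusted p = 3.9e-06). Gimap1 itself was 1.84-fold lower in Treg cells, and counting it together with Gimap1os gave a log2 fold change of -0.95 in place of -0.88. Gm28053, a protein-coding gene model that shares exons with Gimap7, Gimap1 and Gimap5, was lower in both comparisons (log2 fold change -1.90 ± 0.52 in Treg and -2.41 ± 0.54 in Th17 cells), and its reads cannot be told apart from theirs where exons are shared. The long non-coding RNA genes 4833403J16Rik and Gm44226 lie between Gimap5 and Gimap3. They overlap each other on opposite strands, from 48755338 to 48755986, so their reads may be shared if strand was not used. They had only 15 and 18 counts (4833403J16Rik) and 11 and 36 counts (Gm44226) in the Th17 libraries. In Th17 cells they were lower than in naive cells (-2.72 ± 0.40 and -2.79 ± 0.45). In Treg cells 4833403J16Rik just passed (-0.92 ± 0.36, adjusted p = 0.0495) and Gm44226 did not (-1.02 ± 0.40, adjusted p = 0.0515).

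**Figure D4:**
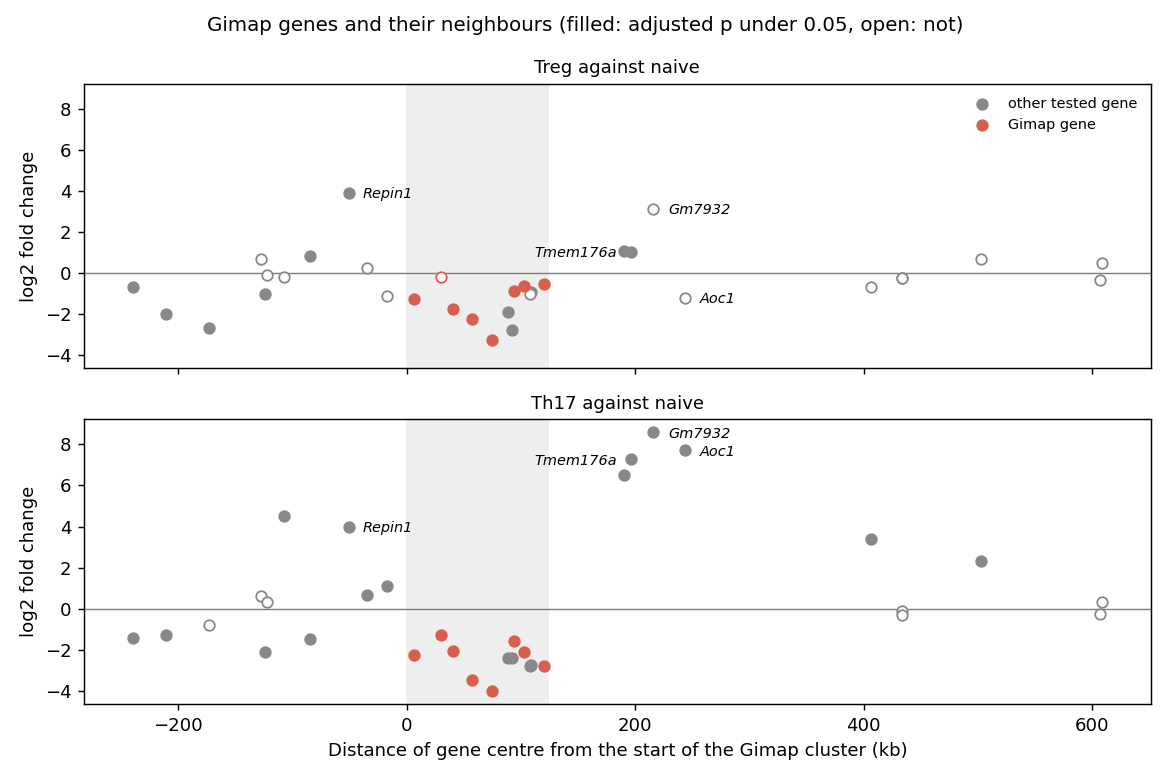
Log2 fold changes against naive cells are drawn at each gene's distance from the start of the Gimap cluster (grey area), for Treg cells above and Th17 cells below, with filled points at an adjusted p under 0.05. In Th17 cells the genes inside the cluster lie below 0, whereas Tmem176a (7.27), Aoc1 (7.71) and Gm7932 (8.58) beyond its end lie far above 0.

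The upstream sequences of the members that moved most and least in Treg cells are shown next, as the 250 bases before the RefSeq start site on GRCm38.p6: chr6:48718371-48718620 for Gimap7 and chr6:48675885-48676134 for Gimap9, both on the plus strand. Capitals mark matches to TGTGGT, a Runx motif, or CCACCC, a Klf motif, on either strand, and the matches do not overlap.
Gimap7: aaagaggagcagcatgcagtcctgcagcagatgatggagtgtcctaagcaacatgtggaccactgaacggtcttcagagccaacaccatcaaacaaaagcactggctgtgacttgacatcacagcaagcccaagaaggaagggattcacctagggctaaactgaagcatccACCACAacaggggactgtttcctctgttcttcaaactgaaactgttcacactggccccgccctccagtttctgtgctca
Gimap9: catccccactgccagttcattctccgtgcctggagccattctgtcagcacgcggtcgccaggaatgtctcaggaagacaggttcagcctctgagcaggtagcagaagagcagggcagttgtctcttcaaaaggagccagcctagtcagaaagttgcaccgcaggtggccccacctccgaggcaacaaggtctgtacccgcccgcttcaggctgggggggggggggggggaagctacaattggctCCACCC
Gimap7 holds 1 match to the Runx letters and Gimap9 1 match to the Klf letters. The Gimap9 match is the last 6 bases of its window, which lie inside the gene by its start in the count table (48676129). RefSeq windows were found for all 8 genes, with 2 start sites for Gimap8. Of these 2 windows, only the second holds CCACCC, and it reaches 127 bases into the gene by the same coordinates. The letters CCACCC occurred in 5 of the 9 member windows, each of another gene, and in 28.1% of all 32851 windows. TGTGGT occurred in 3 of 9 and in 14.0%, and GGAAGT, the ETS core, in 2 of 9 and in 19.7%. The Foxo letters GTAAACA were found for Gimap3 alone and in 3.17% of all windows, and TATAAA for Gimap6 alone and in 12.4%. The member windows were poor in CpG, with a median of 3 CpG against 6 over all windows, and Gimap9 had the most, 8. A match is a description of letters and not evidence of binding.

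The counts of lists that follow stand beside the shares over all tested genes: 23.6% were higher and 19.9% lower in Treg than in naive cells, 29.3% higher and 28.4% lower in Th17 than in naive cells, and 19% higher in Treg than in Th17 cells. In the Bcl2 family, which controls cell death at mitochondria, 5 of 11 genes were called higher and 1 lower in Treg than in naive cells, and 6 higher and 4 lower in Th17 than in naive cells. The survival gene Bcl2 was higher in Treg (log2 fold change 1.13 ± 0.18 (SE), adjusted p = 1.4e-04) and lower in Th17 cells (-0.59 ± 0.18, adjusted p = 0.0107), each against naive cells. Bcl2l1, which encodes Bcl-xL, was higher in both (0.68 ± 0.16 in Treg and 3.77 ± 0.17 in Th17 cells), as was the pro-death gene Pmaip1 (2.92 ± 0.19 and 4.40 ± 0.20). Among the 5 Atg8 family genes, which build autophagosome membranes, Treg cells had 3 higher and 0 lower calls and Th17 cells 2 higher and 2 lower calls, against naive cells, so few genes that the counts are a description only. Gabarapl2, the reported partner of GIMAP6, fell in Th17 cells (-0.79 ± 0.18, adjusted p = 0.00197) and did not pass in Treg cells (0.03 ± 0.18, adjusted p = 0.902), whereas Gabarapl1 was higher in both (4.52 ± 0.23 in Treg and 6.01 ± 0.23 in Th17 cells).

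Of 10 genes of resting T cells, 7 were lower and 0 higher in Treg cells and 8 lower and 0 higher in Th17 cells, each against naive cells, where 19.9% and 28.4% of all tested genes were lower. Klf2, a quiescence factor, had a log2 fold change of -1.14 ± 0.18 in Treg and -6.47 ± 0.23 in Th17 cells, and S1pr1, a receptor for leaving lymphoid organs, one of -1.97 ± 0.17 in Treg and -2.81 ± 0.18 in Th17 cells. Il7r, the receptor of a survival cytokine, was lower in Treg (-4.01 ± 0.26) than in Th17 cells (-1.63 ± 0.23), again against naive cells, and the direct difference passed (Treg against Th17, -2.38 ± 0.24, adjusted p = 2.5e-06). For Gimap genes that passed, Treg cells were the higher of the pair. Among T cell transcription factor genes, Ets1 fell in both types against naive cells (-0.77 ± 0.20 in Treg and -1.37 ± 0.21 in Th17 cells). Runx1 was higher in Treg (0.88 ± 0.16) and lower in Th17 cells (-0.48 ± 0.16). Its relative Runx3 was higher in both (0.54 ± 0.18 in Treg and 1.25 ± 0.18 in Th17 cells). In the direct comparison Runx3 was lower in Treg than in Th17 cells (-0.71 ± 0.18, adjusted p = 0.00511).
The Gbp and Irg genes, which encode another group of immune GTPases, gave 5 of 14 genes above and 5 below their naive levels in Treg cells. In Th17 cells 0 were higher and 12 lower, and 14 of 14 were higher in Treg than in Th17 cells, against 28.4% of all tested genes lower in Th17 than in naive cells and 19% higher in Treg than in Th17 cells. Their median log2 fold change against naive cells was 0.12 in Treg and -3.39 in Th17 cells, beside -1.07 and -2.19 for the Gimap genes.

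Genes with the most similar pattern were sought among 7764 genes above the median level, by the root mean square distance between centred log2 CPM over the 6 libraries and the mean profile of the 8 Gimap genes. The 5 closest were Otulinl (0.0673), the protein-coding gene 4930523C07Rik (0.0787), Cd247, which encodes the zeta chain of the T cell receptor complex (0.0989), H2-K2, listed as an unprocessed pseudogene (0.118) and Trim12c (0.143), in log2 units. Gimap8 was the member nearest to the family's mean (0.0904) and Gimap7 the farthest (0.862), and 2267 of the 7764 genes were closer than Gimap7. With 3 cell types such a profile has few features, so the list is a description.

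Markers of other cells, some of which can carry Gimap RNA, also differed between the types. Of all tested genes, 19.9% were lower in Treg and 28.4% in Th17 than in naive cells. Of 7 B cell markers, 6 were lower in Treg and 7 in Th17 than in naive cells. Their summed level was 502 to 635 CPM in Treg, 25.0 to 34.8 CPM in Th17 and 489 to 512 CPM in naive libraries, mostly from Ighm, and Ms4a1 was at 0 counts in Treg cells. Of 5 tested NK markers, 4 were lower in Treg and 5 in Th17 than in naive cells, with sums of 18.7 to 19.7 CPM in Treg, 0.268 to 1.61 CPM in Th17 and 45.7 to 69.4 CPM in naive libraries. Klrb1c and Ncr1 were at 0 in Treg and Th17 cells, and Klra8 in Treg cells. Of 7 endothelial markers 2 were tested. Pecam1, which T cells also express, was lower in both (-1.78 ± 0.17 in Treg and -1.79 ± 0.17 in Th17 cells), and Vwf was higher in Treg cells (4.52 ± 0.64). Their sums were 75.5 to 90.3 CPM in Treg, 74.5 to 84.6 CPM in Th17 and 255 to 288 CPM in naive libraries, and Emcn was at 0 in all types and Cdh5 in Treg cells. Of 6 tested myeloid markers, 6 were lower in Treg and 5 in Th17 than in naive cells, with sums of 1.37 to 3.22 CPM in Treg, 1.29 to 2.36 CPM in Th17 and 23.9 to 27.9 CPM in naive libraries, and Cd14 and Fcgr1 were at 0 in Treg cells. Of 4 tested erythroid markers, 2 were higher in Th17 and 0 in Treg than in naive cells, where 29.3% and 23.6% of all tested genes were higher. Both calls, Hbb-bs (140 and 0 counts) and Hbb-bt (33 and 0 counts), rested on Th17 library 1. The part of such cells in the Gimap differences was not tested.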

How the data were processed

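Per the labels' protocols, RNA of 6 mouse T cell samples was taken up with an RNeasy Micro kit and turned into SMARTER mRNA-seq libraries. Tools named by the submitters' processing notes are STAR, cutadapt and DESeq2, with the build mm10 and no versions. The authors deposited whole-number counts per gene, not normalized. Per the file headers the table also holds the authors' log2 fold changes and adjusted p-values, printed only where named as theirs, and 6 columns of per-library FPKM values, which were not used. Coordinates equal those of GENCODE mouse release 21 for 98.0% of genes and for all 8 members. Column names give the type and the number 1 or 5, sample titles 1 or 2, so columns were matched to types.

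Counts were fitted by the quasi-likelihood F-test of edgeR 4.0.16 (TMM scaling, filterByExpr at a minimum count of 10) under R 4.3.3 over all genes and 6 libraries, with a mean per type, which leaves 3 residual degrees of freedom. Calls use a Benjamini-Hochberg adjusted p under 0.05 over 15543 genes. The SE was derived as abs(log2 fold change) / sqrt(F). Sampling noise did not account for the spread within a type (chi-square / df of 15.0 to 33.0). A floor of 3 counts per library equals 0.161 to 0.207 CPM and covers counting error only. The members and lists were chosen with earlier results of these data known. Named genes are the members, other Gimap-named rows, the 4 neighbours with the largest change, up to 3 called genes per list and the 5 most similar genes. Genes named beside these (4 genes inside the cluster, Gabarapl2, Runx1, Runx3, marker genes) were picked with their values known. So were the motifs and the printed sequences. Alternatives were DESeq2 1.42.0, limma-voom (limma 3.58.1), total-count scaling, no filter, fits of 4 libraries, a block and leaving out each library. A gene withheld here, and the list counts that include it, are not reported.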

Additional observations from a re-analysis of the deposited data

How the results depend on the processing

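In Th17 against naive cells, all 8 Gimap genes kept their direction and their call under every alternative run, 99 values in all. In Treg against naive cells 89 of 99 values kept both, and in Treg against Th17 cells 94 of 99, with the exceptions given beside Gimap1, Gimap3, Gimap5, Gimap7 and Gimap9. The 2 directions that turned were both of Gimap9 in Treg against naive cells: 0.0153 with total-count scaling and 0.18 without naive library 5, within a range of -0.46 to 0.18 over the libraries left out. With total-count scaling 62.6% of all calls were higher in Th17 than in naive cells, against 50.8%, and 67.0% in Treg than in naive cells, against 54.3%. Leaving out each library gave 1827 to 2976 genes lower in Treg than in naive cells, fewest without Treg library 1, and 1961 to 3265 higher in Treg than in Th17 cells, fewest without Th17 library 1. The number of Gimap genes called ranged from 5 to 7 in each of these comparisons. The cause of these shifts was not tested. Same-numbered libraries of different types deviated together weakly (correlations of 0.00 to 0.13 across genes), so the numbers were not taken as pairs. With the number as a replicate block, Gimap7 passed in Treg against Th17 cells (0.80, adjusted p = 0.0127), and no other Gimap call changed. Gimap7 had the fewest counts of the 8 genes, 62 and 127 in the Th17 libraries, and its log2 fold change between Treg and Th17 cells ranged from 0.32 without Th17 library 1 to 1.36 without Th17 library 5.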
